A study of Saccharomyces cerevisiae with 4 samples.

Results

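The genes described here are the 53 yeast genes whose standard symbol begins with NOP, UTP or RRP followed by a number, out of 6260 open reading frames (ORFs) in the deposited table. They comprise 17 NOP, 18 UTP and 18 RRP genes, matched by systematic ORF name to a RefSeq gene table of assembly R64. The rule reads symbols only, but the set was picked for description with earlier results of these data known. Their products build ribosomes. In the nucleolus a long precursor RNA is transcribed, folded, modified and cut into the RNAs of the small and large ribosomal subunits, and most proteins named Nop (nucleolar protein), Utp (named for the U3 small nucleolar RNA) and Rrp (ribosomal RNA processing) act on that precursor or on the particles it forms. In yeast these genes are known for being transcribed in concert and for following the demand for growth, which is background and not a result of these data.

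RNA of 4 Saccharomyces cerevisiae strains, each labelled as a knockout of 1 transcription factor gene of the sulfur amino acid system, was compared with RNA of a wild type on 2-colour arrays. The strains are met28, set against a wild type labelled "wt+met"; met31, set against "wt"; met32, also set against "wt"; and cbf1, set against "wt+met". All strains were picked from plates with the antibiotic G418 and cultured at 30 °C in the defined medium YNB until the OD600, a measure of cell density, was between 0.8 and 1.0. What "+met" stands for is not spelled out in the labels, and whether arrays with the same reference label shared an RNA sample is not stated. Per the labels at least 2 biological samples were grown for each strain, but each strain has 1 deposited column, so n = 1 throughout. No standard deviation or p-value can be given, and whether any difference below exceeds the spread between cultures was not measured.

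The deposited values were read as log ratios of unstated base, with values above 0 taken as higher in the deletion strain than in wild type. The dye labels leave this direction open. It is the likely one because each of 3 deleted genes was near the bottom of its own array, with MET28 at rank 1 from the lowest (-1.29), CBF1 at rank 4 (-0.995) and MET31 at rank 5 (-0.32). MET32 stood at 0.012 on the array labelled met32, at percentile 59.6, so that array shows no loss of the labelled gene and its direction is unsettled. An exact 0 was treated as not measured, which left 5242, 5893, 5882 and 5383 measured ORFs on the arrays of met28, met31, met32 and cbf1. The robust standard deviations over these ORFs were 0.0778, 0.0519, 0.0608 and 0.110, so a value of a given size is more usual on the cbf1 array than on the met31 array. For this reason each gene is also placed by its percentile among the measured ORFs of its array.

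Of the 53 genes, 48 were measured on all 4 arrays. RRP5 was listed at 0 on met28, and RRP7 and UTP20 were listed at 0 on met32. NOP15 was measured on met31 only and RRP8 on met32 only. UTP20 lies on chromosome II, where 193 of 390 ORFs of the gene table were listed at 0 on the met32 array, while RRP7 lies on chromosome III, where 5 of 157 were.

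In the met28 strain the ribosome-building genes were low as a group, and in the met31 strain they were high. Their median log ratio was -0.0655 on met28 against 0.0015 over all measured ORFs, and 0.072 on met31 against -0.002 over all measured ORFs. On cbf1 the median was -0.069 against -0.034 over all measured ORFs of an array whose values lean low. On met32 it was 0.017 against -0.002. Read as log10 ratios, the met28 median is a level 1.16-fold below wild type and the met31 median a level 1.18-fold above it; read as log2 ratios, both are 1.05-fold. The displacement of the group is therefore small, and it shows in how many genes share a side rather than in the size for a single gene.

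**Figure D1:**
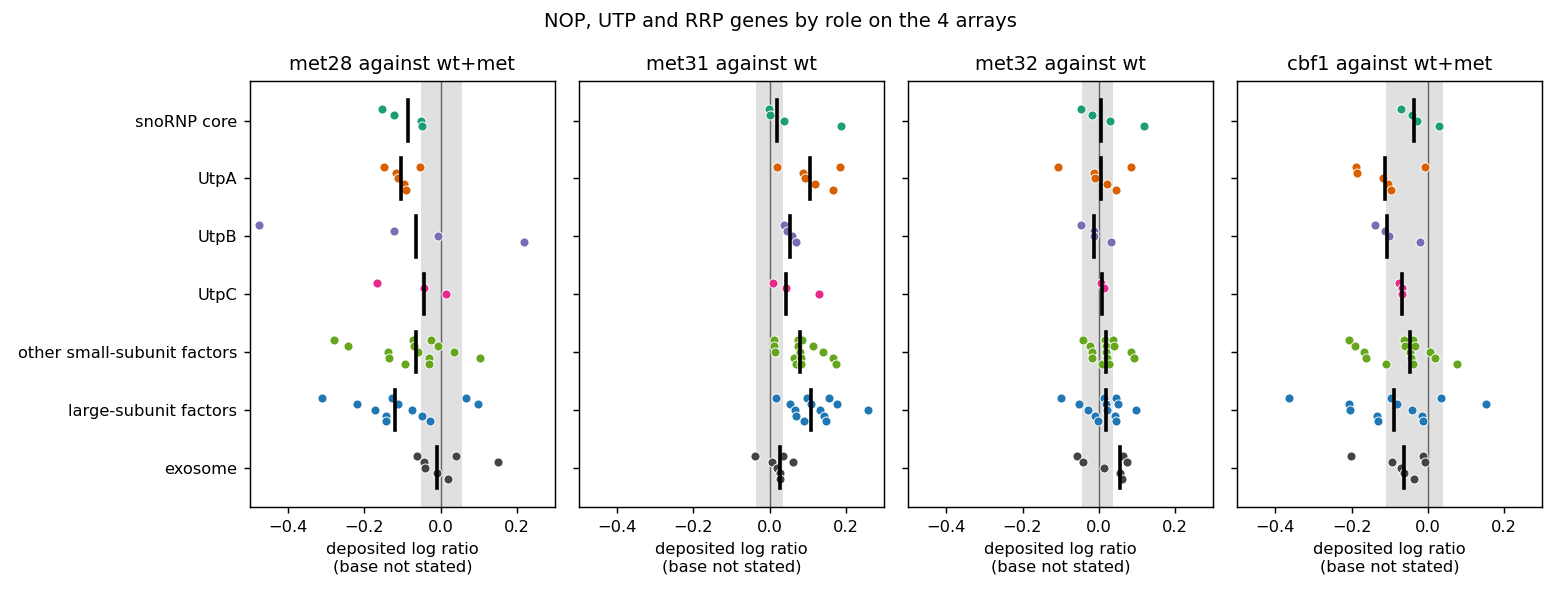
Deposited log ratio (x axis, base not stated) of each measured NOP, UTP and RRP gene on the 4 arrays, by role (rows). Points are genes, black bars are the median of each role, and the grey band holds the middle of all measured ORFs, between the lowest and highest 25%; most points lie left of the band or in its left part on met28 and right of it on met31.

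The counts give the same picture. On met28, 41 of 50 measured genes were below 0 (82.0%, against 49.3% of all measured ORFs), 28 lay in the lowest 25% of the array (56.0%, against 25%) and 5 in the highest 25% (10%, against 25.3%). On met31, 2 of 52 were below 0 (3.85%, against 51.7%), 39 lay in the highest 25% (75.0%, against 25.5%) and 1 in the lowest 25% (1.92%, against 25.4%). At the outer tails, 5 of 50 were in the lowest 2.5% on met28 (10%, against 2.54%) with 0 in the highest 2.5% (against 2.52%), and 8 of 52 were in the highest 2.5% on met31 (15.4%, against 2.51%) with 0 in the lowest 2.5% (against 2.55%).

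On cbf1 few of the genes were at the upper end, and the share at the lower end was near that of all ORFs. Of 51 measured genes, 45 were below 0 (88.2%, against 62.9% of all measured ORFs) and 2 lay in the highest 25% (3.92%, against 25.2%), while 16 lay in the lowest 25% (31.4%, against 25.2%). The cytosolic ribosomal protein genes had a like profile on this array, with 110 of 130 below 0 (84.6%), 8 in the highest 25% (6.15%) and 39 in the lowest 25% (30%). One gene, NOP8, was in the lowest 2.5% (1.96%, against 2.51%), and 0 were in the highest 2.5% (against 2.51%). On met32, 19 of 50 were below 0 (38.0%, against 51.2%), 15 lay in the highest 25% (30.0%, against 25.5%), 6 in the lowest 25% (12%, against 25.1%), and 0 in either outer tail (against 2.52% at the low end and 2.58% at the high end). These met32 shares are as deposited, and with the sign turned the high and low ends change places.

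**Figure D2:**
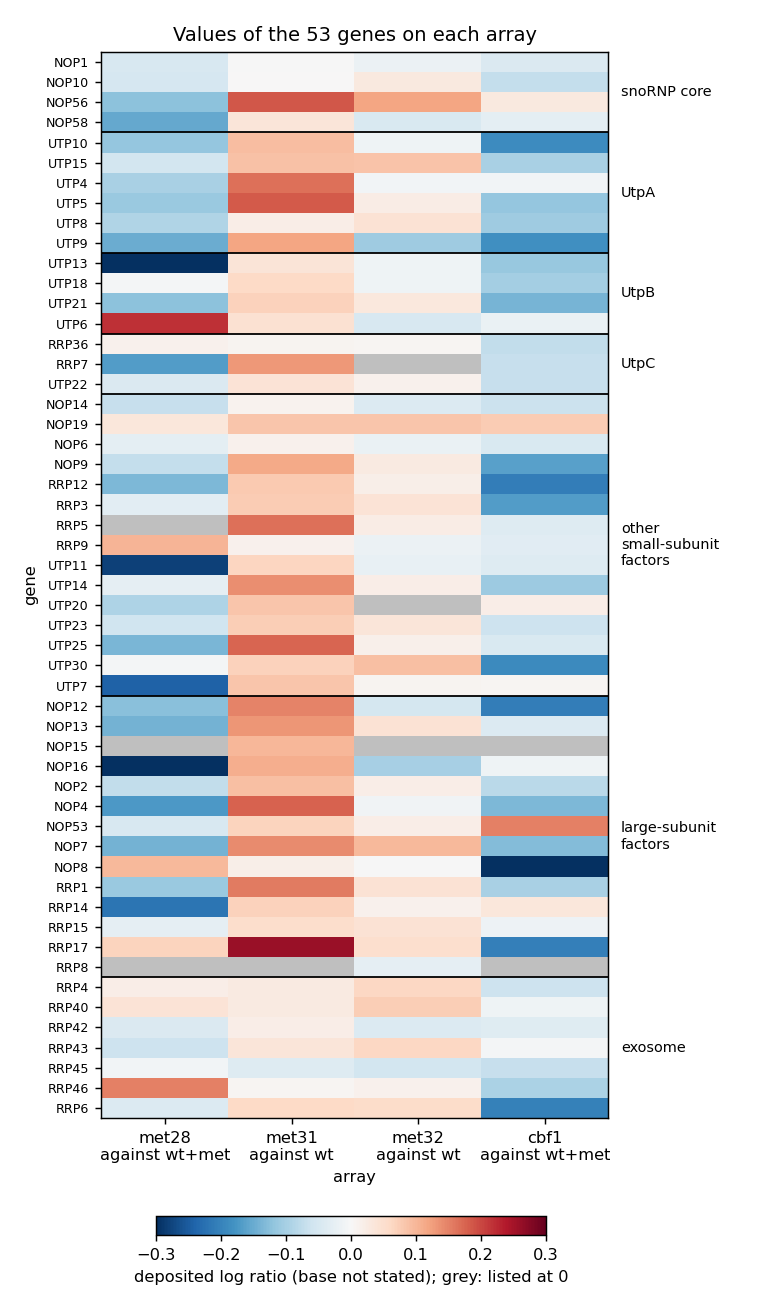
Deposited log ratio (colour, base not stated) of the 53 genes (rows, grouped by role) on each array (columns), with blue below 0, red above 0 and grey for a value listed at 0. Colours stop at 0.3 either side of 0, which 3 values exceed: UTP13 and NOP16 on met28 and NOP8 on cbf1. The met28 and cbf1 columns are mostly blue and the met31 column mostly red.

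The core proteins of the small nucleolar ribonucleoprotein particles (snoRNPs) belong to particles that carry out chemical modification of ribosomal RNA. NOP56, a scaffold of the box C/D particles, was at -0.122 on met28, 0.187 on met31, 0.119 on met32 and 0.030 on cbf1. Its met31 value was in the highest 2.5%, and its met32 value was the highest of the 50 genes measured there (the lowest with the met32 sign turned). NOP58, the paralogous scaffold of the same particle, was at -0.153 on met28, 0.037 on met31, -0.046 on met32 and -0.030 on cbf1. The pair were thus close on met28 and further apart on met31, at percentiles 98.4 and 75.9. NOP1, the methyltransferase of the particle (fibrillarin), stayed within -0.049 to -0.001 on all 4 arrays, and NOP10, of the box H/ACA particles that make pseudouridine, stayed within -0.071 to 0.030.

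UtpA is the complex that first binds the leading end of the precursor RNA. Its 6 genes with UTP names were all in the lowest 25% on met28, and 5 of them were in the highest 25% on met31, with medians of -0.104 and 0.106. UTP9 was at -0.149 on met28, 0.119 on met31, -0.107 on met32 and -0.185 on cbf1, and its met32 value was the lowest of all 50 genes measured there (the highest with the met32 sign turned). UTP5 was at -0.111 on met28, 0.185 on met31, 0.022 on met32 and -0.117 on cbf1. UTP4 was at -0.097 on met28, 0.166 on met31, -0.009 on met32 and -0.008 on cbf1. UTP5 and UTP4 were the members of this complex in the highest 2.5% on met31. UTP10 was at -0.117, 0.093, -0.013 and -0.189 on met28, met31, met32 and cbf1, and UTP15 at -0.055, 0.087, 0.085 and -0.097. UTP8 was the exception on met31, at 0.020 and percentile 66.2, although it stood at -0.090 on met28. On cbf1 all 6 were below 0 (against 62.9% of all measured ORFs), with a median of -0.112. Of the 6, 3 (UTP10, UTP9 and UTP5) were in the lowest 25% there.

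UtpB, a complex that joins the precursor next to UtpA, had the widest spread on met28. UTP13 (YLR222C) was at -0.476 on met28, 0.038 on met31, -0.012 on met32 and -0.113 on cbf1. The met28 value is the lowest of any of the 53 genes on any array, at percentile 0.2, and stands for a level 2.99-fold below wild type if the base is 10 or 1.39-fold below if it is 2. UTP6, a subunit of the same complex, was at 0.219 on met28, 0.046 on met31, -0.048 on met32 and -0.020 on cbf1, and its met28 value, at percentile 96.5, was the highest of the 50 genes there. UTP21 was at -0.123, 0.069, 0.031 and -0.140 on met28, met31, met32 and cbf1, and UTP18 at -0.006, 0.059, -0.013 and -0.103. On met31 the 4 genes lay close together, from 0.038 to 0.069, all in the highest 25%. The UTP-named subunits of this complex thus sat at both ends of the met28 array and side by side on the met31 array. The UtpB gene DIP2, which carries another name, stood apart from them on met31, at 0.296.

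In UtpC, RRP7 was at -0.167 on met28, 0.129 on met31 and -0.069 on cbf1, and was not measured on met32. UTP22 was at -0.044, 0.042, 0.014 and -0.068 on met28, met31, met32 and cbf1. RRP36 was near the middle of the first 3 arrays, at 0.014, 0.008 and 0.005, and at -0.075 on cbf1. All 3 genes were above 0 on met31 (against 48.3% of all measured ORFs) and below 0 on cbf1 (against 62.9%). On cbf1, 0 of the 3 were in the lowest 25%.

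The other 15 genes of small-subunit assembly had medians of -0.0645 on met28 (14 measured), 0.079 on met31, 0.019 on met32 (14 measured) and -0.046 on cbf1. On met31 all 15 were above 0 (against 48.3% of all measured ORFs) and 12 were in the highest 25% (80%, against 25.5%). On met28 8 of 14 were in the lowest 25% (57.1%, against 25%). UTP11 was at -0.279 on met28, 0.064 on met31, -0.022 on met32 and -0.038 on cbf1. UTP7 was at -0.242 on met28, 0.083 on met31, 0.009 on met32 and 0.005 on cbf1. Both were in the lowest 2.5% on met28 alone among the arrays. UTP25 was at -0.137 on met28 and 0.175 on met31, where it was in the highest 2.5%, and at 0.016 on met32 and -0.045 on cbf1. RRP5, whose product takes part in making both subunits, was at 0.166 on met31, also in the highest 2.5%, at 0.022 on met32 and at -0.038 on cbf1.

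RRP12, whose product helps export both subunits from the nucleus, was at -0.135 on met28, 0.079 on met31, 0.018 on met32 and -0.208 on cbf1. It shared the low end on cbf1 with UTP30 (-0.190), the RNA helicase gene RRP3 (-0.167) and NOP9 (-0.163), and these were the members of this set below -0.15 there. UTP30 and RRP3 were near 0 on met28, at -0.007 and -0.031, and at 0.070 and 0.075 on met31 and 0.091 and 0.040 on met32. NOP9 was at -0.072 on met28, 0.113 on met31 and 0.026 on met32. RRP9, which encodes a protein specific to the U3 snoRNP, was on the opposite side on met28 at 0.103, and at 0.012, -0.017 and -0.033 on met31, met32 and cbf1. NOP19 was above 0 on all 4 arrays, at 0.035, 0.083, 0.084 and 0.077 on met28, met31, met32 and cbf1, and no other of the 48 genes measured on all of them was. With the met32 sign turned, 0 of the 48 were. UTP14, whose product activates a helicase of the small-subunit particle, was at -0.026 on met28, 0.139 on met31, 0.020 on met32 and -0.110 on cbf1. UTP20, UTP23, NOP14 and NOP6 lay between 0.011 and 0.084 on met31 and between -0.092 and -0.030 on met28. On cbf1 UTP20 was at 0.019, and the other 3 lay between -0.064 and -0.046.

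The 14 genes of large-subunit assembly had the most displaced medians on met28 and met31 of the 7 roles, -0.1185 (12 measured) and 0.109 (13 measured). NOP16 (YER002W) was at -0.310 on met28, 0.109 on met31, -0.1 on met32 and -0.013 on cbf1. RRP14 was at -0.219 on met28, 0.068 on met31, 0.014 on met32 and 0.034 on cbf1. These were the large-subunit genes in the lowest 2.5% on met28. NOP4 was at -0.173 on met28, 0.176 on met31, -0.010 on met32 and -0.134 on cbf1. NOP7, whose product is the yeast counterpart of pescadillo, was at -0.142 on met28, 0.142 on met31, 0.098 on met32 and -0.130 on cbf1. NOP12 was at -0.126 on met28, 0.148 on met31, -0.053 on met32 and -0.208 on cbf1. For NOP4, NOP7 and NOP12 the met28 and met31 values were of like size and opposite sign. RRP1 (-0.111 and 0.156), NOP13 (-0.142 and 0.132) and the rRNA methyltransferase gene NOP2 (-0.074 and 0.090) lay the same way round on met28 and met31, as did RRP15 (-0.027 and 0.052). On cbf1 these 4 genes ran from -0.097 (RRP1) to -0.016 (RRP15), and on met32 from 0.021 (NOP2) to 0.044 (NOP13 and RRP15). NOP15 was at 0.099 on met31, and the rRNA methyltransferase gene RRP8 at -0.028 on met32.

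A few large-subunit genes departed from the rest. RRP17, which encodes an exonuclease that trims a large-subunit RNA precursor, was at 0.067 on met28, 0.258 on met31, 0.050 on met32 and -0.205 on cbf1. Its met31 value was the highest of the 52 genes, at percentile 99.4, and its met28 value was in the highest 25%. NOP8 (YOL144W) was at 0.097 on met28, 0.017 on met31, -0.002 on met32 and -0.363 on cbf1, the lowest of the 51 genes there, at percentile 1.0. If the base is 10 that is 2.31-fold below wild type, and if it is 2, 1.29-fold. NOP53, whose product brings the exosome helicase to the pre-ribosome, was at -0.049 on met28, 0.067 on met31, 0.019 on met32 and 0.151 on cbf1, where it was the highest.

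The exosome is the nuclease complex that trims RNA from its trailing end, in rRNA maturation and in the decay of many other RNAs. Its 7 genes with RRP names had medians of -0.008 on met28, 0.026 on met31, 0.056 on met32 and -0.062 on cbf1. On met28, 1 of 7 was in the lowest 25% (RRP43, at -0.062), against 27 of the 43 other measured genes. On met31, 2 of 7 were in the highest 25% (RRP6 at 0.060 and RRP43 at 0.036), against 37 of the 45 others. RRP46 was at 0.151 on met28, in the highest 25%, and at 0.005, 0.013 and -0.094 on met31, met32 and cbf1. RRP45 was the lowest of the 52 genes on met31, at -0.039, and RRP6, the nuclear catalytic subunit, was at -0.202 on cbf1. RRP4, RRP40 and RRP42 lay between -0.044 and 0.040 on met28 and between 0.019 and 0.028 on met31. On met32, 4 of the 7 were in the highest 25% (RRP40 at 0.073, RRP4 at 0.063, RRP43 at 0.062 and RRP6 at 0.056), against 11 of the 43 others, and RRP42 and RRP45 were at -0.041 and -0.056. With the met32 sign turned, those 4 and 11 genes lie in the lowest 25%. On cbf1 all 7 were below 0 (against 62.9% of all measured ORFs), with RRP43 highest at -0.007. Of the 7, 1 was in the lowest 25% there (14.3%, against 25.2%). Without the exosome genes the group median was -0.090 on met28 and 0.083 on met31.

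Of the 50 genes measured on both met28 and met31, 39 were below 0 on met28 and above 0 on met31 (78%), against 25.8% of the 5153 ORFs measured on both. With 41 of the 50 below 0 on met28 and 2 on met31, no smaller count was possible. The count therefore adds nothing to the separate shift of the group on each array. At the outer ends, 26 were in the lowest 25% on met28 and the highest 25% on met31 (52.0%, against 8.44%). The share over all ORFs is not a like comparison. On their own, 28 of 50 genes were in that end on met28 and 39 of 52 on met31. A high joint share follows largely from these 2 counts. The 39 held 3 of the 7 exosome genes and 36 of the 43 others. The 11 that did not follow were UTP6, RRP46, RRP9, NOP8, RRP17, RRP40, NOP19, RRP4 and RRP36, which were above 0 on both arrays, and RRP45 and NOP1, which were below 0 on both. Across the 50 genes the 2 arrays had a Spearman rho of -0.473 and a Pearson r of -0.262, against -0.156 and -0.129 over all 5153 ORFs. Across the 43 genes outside the exosome they were -0.360 and -0.161. Genes on 1 array share its RNA samples and labelling and are not replicates, so these are descriptions. The met28 and met31 arrays carry different reference labels, and the strain and the kind of reference cannot be told apart in this contrast.

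**Figure D3:**
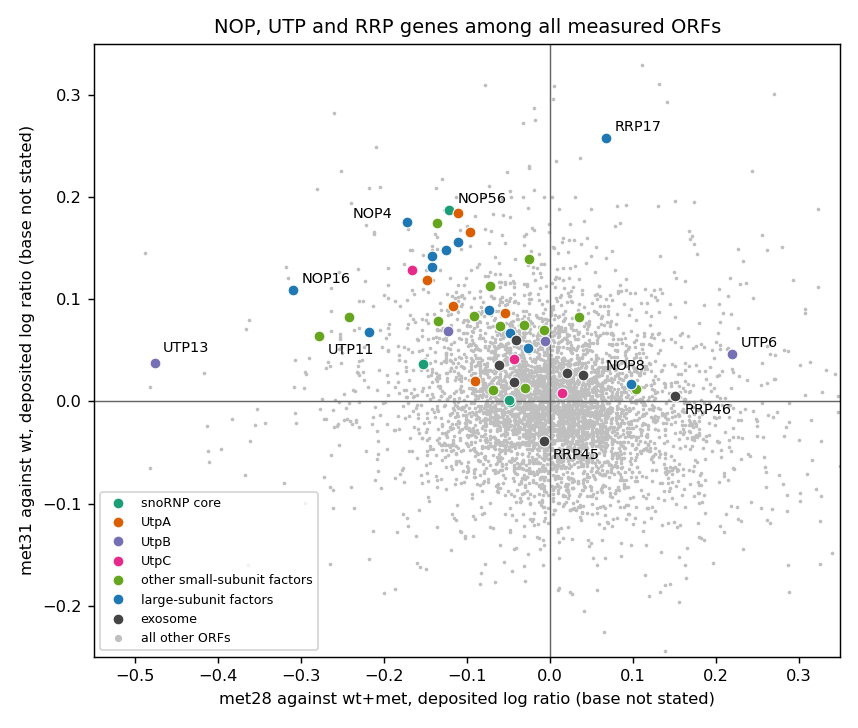
Deposited log ratio (base not stated) on the met28 array (x axis) and on the met31 array (y axis) for the 50 genes measured on both, coloured by role, over all other ORFs in grey; axes are cropped to the range of the coloured points, so some grey ORFs fall outside. Most coloured points sit in the upper left of the plot, with UTP6, RRP46 and RRP17 right of 0 and RRP45 below 0.

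For cbf1 and met31, 43 of the 51 genes measured on both were below 0 on cbf1 and above 0 on met31. That is 84.3%, against 27.2% of 5308 ORFs. With 45 of the 51 below 0 on cbf1 and 2 on met31, no smaller count was possible here either. At the outer ends, 15 were in the lowest 25% on cbf1 and the highest 25% on met31 (29.4%, against 4.77%). This too is not a like comparison, since 16 of 51 genes were in that end on cbf1 and 39 of 52 on met31. The met28 and cbf1 arrays carry the same reference label, so their values are given side by side without an overlap. The 5 genes in the lowest 2.5% on met28 were UTP13, NOP16, UTP11, UTP7 and RRP14, and on cbf1 they stood at -0.113, -0.013, -0.038, 0.005 and 0.034. NOP12, RRP12 and RRP17, which stood at -0.208, -0.208 and -0.205 on cbf1, were at -0.126, -0.135 and 0.067 on met28.

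Genes of ribosome assembly that carry other names lay on the same sides. Of 28 measured genes of the small-subunit processome under other names, 15 were in the lowest 25% on met28, where the list median was -0.082, and of 30 measured on met31, 25 lay in the highest 25%, and the list median was 0.0995. They included MPP10 (-0.227) and the helicase gene DHR2 (-0.209) on met28, and SAS10 (0.406) and the UtpB gene DIP2 (0.296) on met31. Of 41 measured large-subunit genes under other names, 33 were in the lowest 25% on met28, with SPB1 (-0.264) and YTM1 (-0.254) lowest, and of 46 measured on met31, 37 were in the highest 25%, with REX4 (0.394) highest and URB1 (-0.231) an exception at the low end. On cbf1 these 2 lists had 11 of 28 and 21 of 45 measured genes in the lowest 25%, led by PWP2 (-0.3) and ARX1 (-0.329). On met32 their medians were 0.008 and -0.015.

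Lists further from pre-rRNA assembly were mixed. The other snoRNP genes had 4 of 10 measured genes in the lowest 25% on met28, CBF5 (-0.253) among them, and 4 of 11 in the highest 25% on met31. RNA polymerase I genes, whose products transcribe the precursor, had medians of -0.031 on met28 and 0.025 on met31, with 6 of 12 in the lowest 25% on met28 and 6 of 14 in the highest 25% on met31. The exosome genes under other names had a median of 0.024 on met28, with 0 of 6 in the lowest 25%, and of 0.076 on met31, with 6 of 7 in the highest 25%. The cytosolic ribosomal protein genes, which supply the proteins that the assembly factors put together, had medians of -0.015 on met28, 0.011 on met31, -0.0075 on met32 and -0.077 on cbf1, with 31 of 129 in the lowest 25% on met28 and 18 of 129 in the highest 25% on met31. The met28 share (24%) is near the background, although 85 of 129 were below 0 there (65.9%, against 49.3%), and the met31 share (14%) is below the background. On met31, 78 of 129 were above 0 (60.5%, against 48.3%) and 12 were in the lowest 25% (9.30%, against 25.4%), so few lay at either end.

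Genes of the general stress response lay mostly on the opposite side. On met28, 8 of 18 were in the highest 25% (44.4%, against 25.3% of all measured ORFs, median 0.051). On met31, 11 of 18 were in the lowest 25% (61.1%, against 25.4%, median -0.0515). On cbf1, 11 of 17 were in the highest 25% (64.7%, against 25.2%, median 0.151). Some went the other way, with 3 in the lowest 25% on met28, 1 in the highest 25% on met31 and 3 in the lowest 25% on cbf1. SSA4 was the lowest of these on cbf1, at -0.279. On met28 GAC1, a regulatory subunit gene of glycogen metabolism, was at 0.624, and on met31 it was at -0.207. The part of growth state or stress in the values of the ribosome-building genes was not tested.

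**Figure D4:**
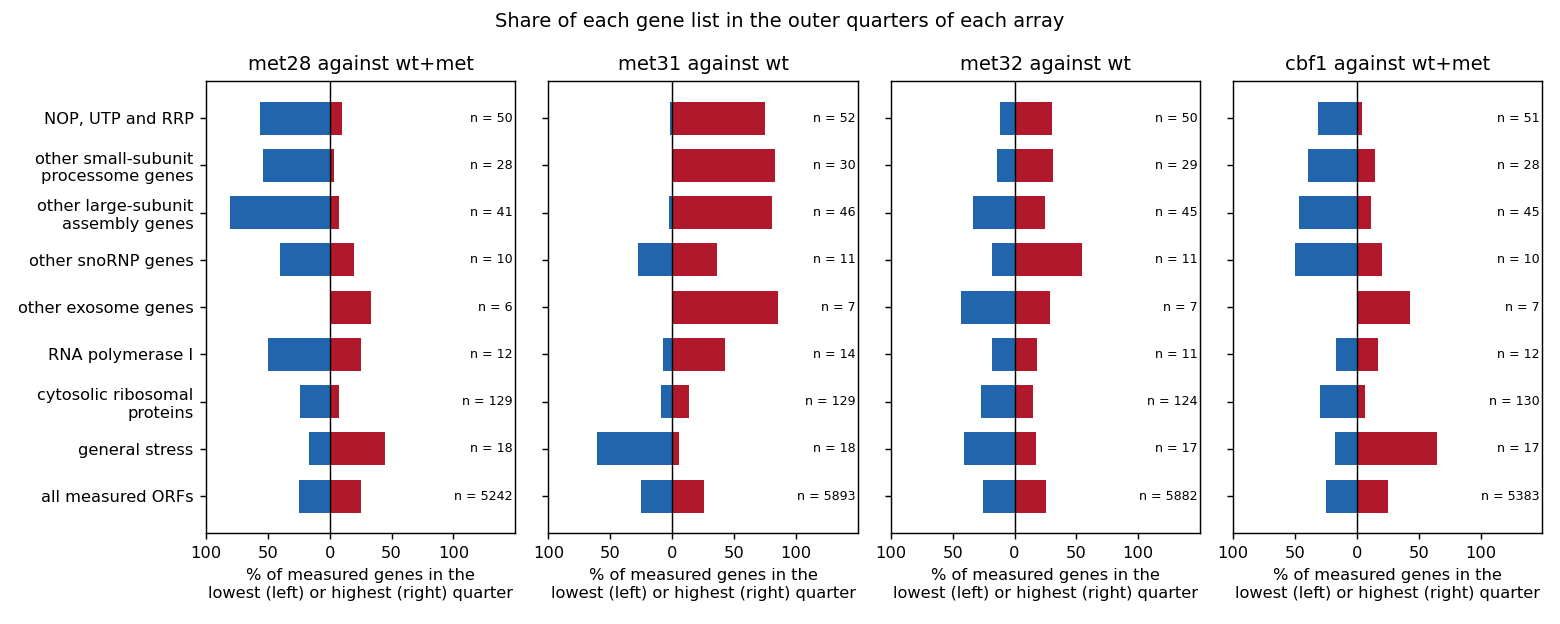
Percentage of the measured genes of each list (rows) in the lowest 25% of an array (blue, to the left) and in its highest 25% (red, to the right), with the number of measured genes at the right. The NOP, UTP and RRP genes and the other small- and large-subunit assembly genes extend further to the left on met28 and to the right on met31. The general stress genes extend further the other way on these arrays.

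The position of the genes was looked at in gene order. The 105 direct neighbours of the 53 genes that are not themselves NOP, UTP or RRP genes had medians of -0.012 on met28, 0.004 on met31, -0.003 on met32 and -0.048 on cbf1. Of the neighbours measured, 28 of 95 were in the lowest 25% on met28 (29.5%) and 31 of 100 in the highest 25% on met31 (31.0%), against 56.0% and 75.0% of the genes themselves. Some of the 53 lie near each other. NOP8 and RRP40 have 1 gene between them on chromosome XV, and stood at -0.363 and -0.013 on cbf1. RRP6 and UTP23, with 2 genes between them on the same chromosome, stood at -0.202 and -0.061 on cbf1. UTP22 and RRP46 on chromosome VII, with 4 between, stood at -0.044 and 0.151 on met28. Each pair is given here on an array where its values lay apart. On met31 the pairs stood closer, at 0.017 and 0.026, 0.060 and 0.074, and 0.042 and 0.005, in the same order.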

How the data were processed

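The authors' deposited table holds 1 signed score per ORF and strain, with at most 3 decimals. Per the labels' protocols, RNA came from a hot phenol extraction and the dyes (Cy3, Cy5) were incorporated directly during cDNA synthesis. No source used here gives the log base, background correction, normalization, dye swaps, averaging of cultures or array design. Intensities were not analysed here, so signal over background is unknown, and the precision is limited by the number of arrays.

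Scores were used as deposited. Exact zeros were left out. Of 6260 ORFs, 5774 were listed in the RefSeq gene table, which was used for names and gene order only; 2 list names were matched through synonyms. Tails are the lowest or highest 25%, 10% or 2.5% of the measured ORFs of an array, ties included. Medians and counts stand beside those over all measured ORFs, and no test was possible with 1 column per strain. The summary step was tested on shuffled values of each array with a known shift added to a part of them. Python 3.11.15, pandas 2.3.3, numpy 2.4.6 and matplotlib 3.10.9 were used.

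All 53 genes may be named. Of genes outside the 53, those named are the deleted genes and, from each list, genes among the 4 with the largest absolute value on an array. The genes, role lists and comparison lists were chosen with earlier results of these data known. Promoter and protein sequences were not analysed here.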

Additional observations from a re-analysis of the deposited data

Results flagged for a closer look

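Between arrays with the same reference label, some of the 53 genes lay in the lowest 25% of one array and the highest 25% of the other. With 1 column per strain, none of these differences was tested. For met28 and cbf1 they were 2 of 50 genes measured on both (4%, against 10.5% of all ORFs measured on both). Few genes could count here, with 5 of 50 in the highest 25% on met28 and 2 of 51 on cbf1. The low share follows from that and, with the same reference label on both arrays, is no measure of likeness between the strains. NOP8 differed by 0.460 as met28 minus cbf1 (0.097 on met28 and -0.363 on cbf1) and RRP17 by 0.272 (0.067 and -0.205). For met31 and met32 they were 5 of 49 (10.2%, against 10.3%), a share at the background. As met31 minus met32, UTP9 differed by 0.226 (0.119 on met31 and -0.107 on met32), NOP16 by 0.209 (0.109 and -0.1), NOP12 by 0.201 (0.148 and -0.053), UTP6 by 0.094 (0.046 and -0.048) and NOP58 by 0.083 (0.037 and -0.046). With the unsettled sign of met32 turned, an alternative chosen after seeing the data, these 5 drop out and 13 of the 49 lie at opposite ends (26.5%, against 16.7%): UTP15, UTP30, NOP7, NOP13, NOP19, NOP56, RRP1, RRP3, RRP6, RRP15, RRP17, RRP43 and RRP45. Since 39 of 52 genes were in the highest 25% on met31, the shares over all ORFs are not a like comparison under either sign.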

How the results depend on the processing

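Of 73 alternative values for the medians and the counts in the outer 25%, 50 kept their sign and moved by no more than 1.5 times. With median centring the cbf1 median was -0.035, and the other centred medians moved less. Turning the sign of met32 gave a median of -0.017. Divided by the robust SD of the array, the medians were -0.842 on met28, 1.39 on met31, 0.280 on met32 and -0.629 on cbf1. With 10% tails the low and high counts were 0 and 24 on met31, 2 and 5 on met32, and 8 and 1 on cbf1, and the high count on met28 was 2. With 2.5% tails they were 5 and 0 on met28, 0 and 8 on met31, 0 and 0 on met32, and 1 and 0 on cbf1. Narrower tails hold fewer genes by construction. With zeros kept as values, 4 genes were in the highest 25% on cbf1. Without the exosome genes, 0 were in the lowest 25% on met31, since the gene there was RRP45. No paired analysis was possible because each strain has 1 column. The planned promoter and protein descriptions were not run. Without intensities, values near background cannot be told from others.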
